A study of Homo sapiens with 8 samples.

Results

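Mitotic kinesin motors were followed in CYP2C19-overexpressing HepG2 cells treated with plastic-related bisphenols. The members were chosen by symbol, as 10 genes of the 60230 in the deposited gene table: KIF2C, KIF4A, KIF11, KIF14, KIF15, KIF18A, KIF18B, KIF20A, KIF23 and KIFC1. All 10 passed the filter on low counts, together with the rest of the 13400 genes tested. The series holds 8 RNA-seq libraries in 4 groups of 2, made from HepG2, a human liver cancer cell line, that overexpresses the drug-metabolising enzyme CYP2C19 and was kept under blasticidin selection. All groups shared this background. One group received the vehicle DMSO, and the others received compound 4 (label "metylcresol"), compound 5 (label "tetrabut") or compound 6 (label "cyclohexil"), each at its own IC50, for a day according to the methods. These doses were set per compound and are close to one another by the study's account, but not the same. The labels mark the replicates of each group as day 1 and day 2, and these are called replicate 1 and replicate 2. Nothing states that they were separate cultures, so a p-value measures the spread between these samples, which may be technical. There was no group without the CYP2C19 construct, and the sources do not say whether the cells were a single clone.

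Kinesins are motors that hydrolyse ATP to move along microtubules or to take microtubule ends apart. The mitotic kinesins build the spindle, align the chromosomes and organise the microtubule bundle between the separating chromosomes where the cell then divides. Their transcripts accumulate as dividing cells approach mitosis. CHR elements in their promoters are bound by the repressor complex DREAM, and by MuvB with the activators B-MYB and FOXM1. The CCAAT-binding factor NF-Y also takes part in their control. A bulk library cannot tell fewer cells near mitosis from less of each transcript per cell.

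The libraries held between 9791659 and 17814595 counts assigned to genes, and the members together took between 2577 and 7489 of them. Every one of the 9 hepatocyte markers was expressed in each group, and PTPRC, CD3E, COL1A2 and DCN, which mark immune cells and fibroblasts, were at 0 in all libraries. Of the 10 markers of other cell types, 3 passed the count filter, and 2 of these were higher with compound 4, PDGFRB of fibroblasts and pericytes (log2-fold change 1.79, adjusted p = 0.0063 by edgeR) and CD68 of macrophages (0.80, adjusted p = 0.016), and none with compounds 5 or 6. The summed level of the hepatocyte markers was 50664 to 54654 CPM (counts scaled to the library total) in DMSO, 34999 to 42425 CPM with compound 4, 43463 to 44734 CPM with compound 5 and 37678 to 43803 CPM with compound 6. Of the hepatocyte markers, 4 were lower with compound 4, APOA1 (-0.90), AFP (-0.71), APOB (-0.61) and TF (-0.52), FGB was higher with compound 5 (0.53), and none passed with compound 6. The summed level of the 10 markers of other cell types ran from 26.4 to 35.4 CPM in DMSO, from 64.0 to 64.9 CPM with compound 4, from 28.4 to 38.3 CPM with compound 5 and from 45.8 to 46.2 CPM with compound 6. The part of these shifts in the kinesin differences was not tested. CYP2C19 itself read 27.7 and 16.4 CPM in DMSO, 31.4 and 44.3 CPM with compound 4, 52.8 and 37.96 CPM with compound 5, and 23.9 and 21.2 CPM with compound 6. By edgeR, CYP2C19 was called higher with compound 5 (log2-fold change 1.05, adjusted p = 0.040). It did not pass with compound 4 (0.79, adjusted p = 0.086) or compound 6 (0.04, adjusted p = 0.95). The part of this difference in the kinesin levels was not tested. The labels name replicate 1 of DMSO and of compound 4 as merged, and no other library.

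Replicates of the treated and control cells differed in their kinesin levels in one direction. Replicate 2 lay above replicate 1 for 10 of 10 members in DMSO, in compound 5 and in compound 6, and for 9 of 10 in compound 4. The median difference over the members was 0.43 on the log2 scale in DMSO, 0.23 in compound 4, 0.55 in compound 5 and 0.10 in compound 6, while the median over all genes tested lay between -0.01 and 0.01. DMSO replicate 2 and compound 5 replicate 2 were thus the high libraries of their groups, and the medians of the members are given with and without them.

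The proximal promoters of the members carried the letters of the CHR element (TTTGAA) and of the NF-Y box (CCAAT). Windows from 250 bases before to 50 bases after the RefSeq start (GRCh38.p14) were matched for 10 of 10 members among 35116 promoters. TTTGAA, on either strand, stood in the windows of 8 members and in 15.2% of all windows. CCAAT, on either strand, stood in those of 8 members and in 34.6% of all windows, and both together in those of 7 members and in 5.9% of all windows. The variant TTCGAA stood in no member's window and in 1.45% of all windows. KIF2C and KIF20A had no TTTGAA, and KIF2C and KIF15 had no CCAAT. Counted from 1 at the RefSeq start, with negative positions before it, all TTTGAA matches of the members lay from -55 to 10 and all CCAAT matches from -94 to -18. The letters TTTAAA, searched only after KIF2C and KIF20A were seen to hold no TTTGAA, stood in the windows of 4 members, KIF2C, KIF14, KIF20A and KIF23, and in 12.2% of all windows. A match is a description of the sequence and does not show binding. No TTTGAA match of a member overlapped a CCAAT match.

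The promoter stretches of the 4 members with the lowest log2-fold change under compound 4 (KIF20A, KIF11, KIF18A and KIF23) and of the 2 members that did not pass the test there (KIF2C and KIF14) show this arrangement. Each runs 5′ to 3′ on the strand of the gene, from 100 bases before the RefSeq start to 20 bases after it (the beginning of the first exon), in GRCh38.p14. Capitals mark TTTGAA or its reverse complement TTCAAA, and CCAAT or its reverse complement ATTGG. The windows are chr5:138179012-138179131 (KIF20A, plus strand), chr10:92593030-92593149 (KIF11, plus), chr11:28108137-28108256 (KIF18A, minus), chr15:69414249-69414368 (KIF23, plus), chr1:44739737-44739856 (KIF2C, plus) and chr1:200620732-200620851 (KIF14, minus).
KIF20A: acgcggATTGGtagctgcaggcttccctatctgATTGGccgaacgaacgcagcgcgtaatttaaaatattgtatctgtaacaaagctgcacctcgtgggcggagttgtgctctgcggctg
KIF11: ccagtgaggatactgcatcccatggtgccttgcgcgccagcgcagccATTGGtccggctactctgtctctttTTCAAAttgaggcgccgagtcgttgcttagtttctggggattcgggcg
KIF18A: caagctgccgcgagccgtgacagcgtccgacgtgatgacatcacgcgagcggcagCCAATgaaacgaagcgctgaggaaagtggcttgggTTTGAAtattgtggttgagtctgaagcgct
KIF23: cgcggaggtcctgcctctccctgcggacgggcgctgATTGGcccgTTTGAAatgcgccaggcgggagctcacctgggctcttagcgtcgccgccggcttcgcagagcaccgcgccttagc
KIF2C: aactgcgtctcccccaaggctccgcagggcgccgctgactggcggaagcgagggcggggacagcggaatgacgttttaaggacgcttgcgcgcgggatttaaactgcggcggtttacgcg
KIF14: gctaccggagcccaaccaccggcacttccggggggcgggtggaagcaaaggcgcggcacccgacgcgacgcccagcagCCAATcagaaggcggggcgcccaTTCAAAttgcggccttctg
KIF20A showed a pair of ATTGG boxes and no TTTGAA on either strand, and the stretch of KIF2C held no capitals at all. The letters TTTAAA, which are not capitalised here, stood at -41 to -36 in KIF20A and at -3 to 3 in KIF2C. KIF11, KIF18A, KIF23 and KIF14 each held a CCAAT box with TTTGAA downstream of it, on either strand.

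In vehicle-treated cells, the members ranged from 3.26 to 21.9 CPM per kilobase of exon, the scale on which levels of different genes can be compared. KIF2C was the highest at 21.9 CPM per kilobase, followed by KIF20A (16.7), KIFC1 (15.7), KIF4A (14.0) and KIF11 (12.4). KIF15 (9.05), KIF18B (7.53) and KIF23 (6.64) lay in the middle of the range, and KIF18A (3.93) and KIF14 (3.26) were the lowest. Between conditions, the mean of every member was highest in DMSO and lowest with compound 4. The mean with compound 5 lay above that with compound 6 for 8 members, and below it for KIF14 and KIF18A, but the libraries of compounds 5 and 6 did not separate for any of the 10.

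Among the motors that set up the bipolar spindle, KIF11 pushes the spindle poles apart and is the target of several antimitotic drugs. KIF11 read 51.1 and 69.2 CPM in DMSO, 26.4 and 25.9 CPM with compound 4, 31.6 and 43.8 CPM with compound 5, and 34.9 and 35.8 CPM with compound 6. All treated libraries lay below both DMSO libraries, and those of compound 4 were the lowest. KIF15, a motor that can keep the spindle bipolar when KIF11 is blocked, read 40.4 and 55.3 CPM in DMSO, 23.8 and 29.4 CPM with compound 4, 31.1 and 43.99 CPM with compound 5, and 28.5 and 32.0 CPM with compound 6. Compound 5 replicate 2 overlapped the DMSO range for KIF15. KIFC1, a minus-end-directed motor that bundles spindle microtubules and clusters extra centrosomes, read 46.2 and 58.9 CPM in DMSO, 28.3 and 29.2 CPM with compound 4, 27.2 and 47.6 CPM with compound 5, and 32.6 and 34.9 CPM with compound 6. The compound 5 libraries of KIFC1 were the most widely spaced of any member on the log2 scale, one below all compound 4 libraries and the other inside the DMSO range.

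Of the motors that act on microtubule ends and move chromosomes, KIF2C depolymerises microtubules at centromeres and helps to correct wrong attachments. KIF2C read 67.1 and 92.3 CPM in DMSO, 48.6 and 54.0 CPM with compound 4, 51.5 and 76.7 CPM with compound 5, and 55.3 and 60.8 CPM with compound 6. Compound 5 replicate 2 lay between the DMSO replicates of KIF2C, and all other treated libraries lay below both. KIF18A, which dampens chromosome oscillations at the metaphase plate, read 17.2 and 19.5 CPM in DMSO, 7.51 and 10.0 CPM with compound 4, 9.06 and 14.9 CPM with compound 5, and 11.3 and 13.3 CPM with compound 6. Its DMSO replicates were the closest of the members on the log2 scale, and every treated library lay below them. KIF18B, which shortens astral microtubules, read 29.4 and 40.7 CPM in DMSO, 18.5 and 19.7 CPM with compound 4, 21.1 and 30.8 CPM with compound 5, and 21.6 and 22.7 CPM with compound 6. Here too, compound 5 replicate 2 fell between the DMSO libraries.

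Of the motors of the spindle midzone and of cytokinesis, KIF20A carries the chromosomal passenger complex with Aurora B to the midzone. KIF20A read 59.4 and 73.1 CPM in DMSO, 24.7 and 27.6 CPM with compound 4, 29.6 and 49.8 CPM with compound 5, and 32.9 and 34.1 CPM with compound 6. All 6 treated libraries lay below both DMSO libraries. KIF23, the motor subunit of centralspindlin, which recruits the contractile ring machinery, read 37.2 and 50.2 CPM in DMSO, 19.6 and 25.9 CPM with compound 4, 27.7 and 37.5 CPM with compound 5, and 27.1 and 29.2 CPM with compound 6. KIF4A, a chromosome-associated kinesin that also limits the length of midzone microtubules, read 56.7 and 70.6 CPM in DMSO, 31.5 and 41.4 CPM with compound 4, 39.8 and 58.1 CPM with compound 5, and 43.3 and 49.6 CPM with compound 6. For KIF23 and KIF4A, only compound 5 replicate 2 among the treated libraries entered the DMSO range, in each case near its lower end. KIF14, which brings citron kinase to the midbody, read 20.1 and 27.3 CPM in DMSO, 12.9 and 18.9 CPM with compound 4, 13.5 and 22.9 CPM with compound 5, and 19.0 and 20.1 CPM with compound 6. The compound 6 libraries of KIF14 lay just below the lower DMSO library, and the compound 4 replicates differed by more, on the log2 scale, for KIF14 than for any other member.

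Most of the mitotic kinesins were lower with compound 4 than with DMSO. In the test of compound 4 against DMSO (edgeR quasi-likelihood, adjusted p under 0.05 over all 13400 genes), 8 of 10 members were lower and none was higher, against 3.91% of all genes called lower, 5.6% called higher and 9.51% called in either direction. KIF20A had the lowest value, at a percent change of -60.5%, followed by KIF11 at -56.7% and KIF18A at -52.0%. The median log2-fold change of the members was -0.87, and that of all genes tested was 0.01. At an unadjusted p under 0.05, 9 of 10 members were lower, against 12.4% of all genes. Both compound 4 libraries lay below both DMSO libraries for 10 of 10 members, as they did for 28% of all genes.

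The members that passed came from all 3 functional classes. KIF20A had a log2-fold change of -1.34 (SE 0.22, adjusted p = 0.0091 by edgeR), and its mean level was 26.1 ± 2.07 CPM with compound 4 and 66.3 ± 9.66 CPM in DMSO (SD, n = 2 each). KIF11, a spindle pole motor, had a log2-fold change of -1.21 (SE 0.19, adjusted p = 0.0068), from 60.2 ± 12.7 CPM to 26.1 ± 0.362 CPM. KIF18A, at -1.06 (SE 0.25, adjusted p = 0.029), went from 18.4 ± 1.62 CPM to 8.77 ± 1.79 CPM. KIF23 (-0.94, adjusted p = 0.023), KIF18B (-0.88, adjusted p = 0.029), KIFC1 (-0.87, adjusted p = 0.044), KIF15 (-0.84, adjusted p = 0.034) and KIF4A (-0.80, adjusted p = 0.039) completed the set that passed. The 2 members that did not pass were KIF2C, with a log2-fold change of -0.64 (SE 0.20, adjusted p = 0.075), and KIF14, with -0.58 (SE 0.27, adjusted p = 0.20). In DMSO, KIF2C was the most abundant member per length and KIF14 the least abundant. With the replicate number as a block in edgeR, KIF2C passed at an adjusted p of 0.023, but it did not pass in every alternative. In the fit with the block 9 members were called, and 720 of all genes were called lower, against 524 without the block.

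The direction under compound 4 held without any single library, while the number of calls did not. The median over the members was -1.08 without DMSO replicate 1 and -0.66 without DMSO replicate 2, and -0.81 and -1.01 without compound 4 replicate 1 and replicate 2. No call held in all of these fits, and the number of calls over all genes also changed with the library left out. Within replicate number 2 alone the median was -0.97, and within replicate number 1 alone it was -0.80.

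**Figure D1:**
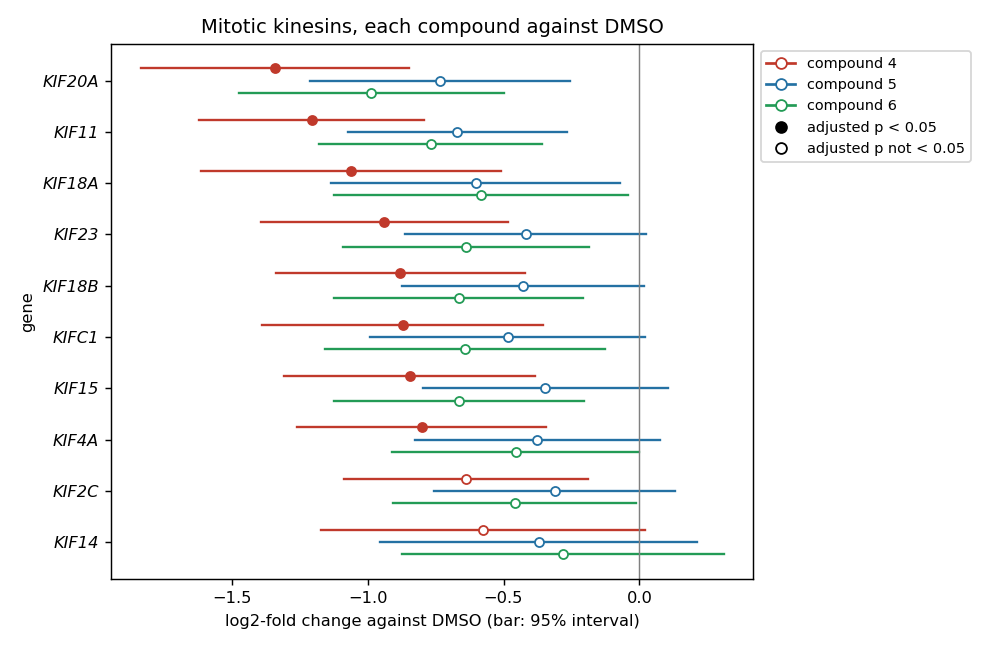
Log2-fold change against DMSO (x axis) of each member (y axis) for compounds 4, 5 and 6, with points for the estimate, bars for the 95% interval and filled points for an adjusted p under 0.05. Only compound 4 has filled points, for 8 of 10 members, and the estimates of all compounds lie below 0.

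Compound 5 gave smaller values with a wider spread. No member passed the test against DMSO (0 of 10), where 2.95% of all genes were called lower, 5.35% higher and 8.3% in either direction. The median log2-fold change of the members was -0.42, against 0.00 for all genes. KIF20A had the lowest value at -0.73 (SE 0.21, adjusted p = 0.063), followed by KIF11 at -0.67 (SE 0.18, adjusted p = 0.050) and KIF18A at -0.60 (SE 0.24, adjusted p = 0.13). These 3 were also the members whose compound 5 libraries both lay below both DMSO libraries, as was the case for 28.5% of all genes, and the 3 with an unadjusted p under 0.05, as had 12.8% of all genes in that direction. The remaining 7 members ranged from -0.48 for KIFC1 (adjusted p = 0.19) to -0.31 for KIF2C (adjusted p = 0.32).

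The compound 5 result rested on which library was kept and on the design. With the replicate number as a block, KIF11 (adjusted p = 0.031, range 0.00049 to 0.30 over its alternatives), KIF18A (adjusted p = 0.049, range 0.026 to 0.55) and KIF20A (adjusted p = 0.029, range 0.000085 to 0.29) passed. With the block, 10 of 10 members were lower at an unadjusted p under 0.05, against 1903 of all 13400 genes. DESeq2 called KIF11 and KIF20A. Of all genes, 541 were called lower with the block and 479 with DESeq2, against 395 with edgeR and no block. Without compound 5 replicate 2, the median over the members was -0.78, whereas it was -0.18 without compound 5 replicate 1. Without DMSO replicate 2 the median was -0.20, and without DMSO replicate 1 it was -0.64. Within replicate number 1 the median was -0.54, and within replicate number 2 it was -0.37.

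With compound 6, the median over the members lay between those of the other compounds, and 8 of 10 members had a value between theirs, the exceptions being KIF14 and KIF18A. Here too, 0 of 10 members passed the test against DMSO, in a comparison in which 0.0821% of all genes were called lower, 0.493% higher and 0.575% in either direction. At an unadjusted p under 0.05, 8 of 10 members were lower, against 7.72% of all genes, and both compound 6 libraries lay below both DMSO libraries for 10 of 10 members, against 26% of all genes. The median log2-fold change was -0.64 over the members and 0.02 over all genes. KIF20A again had the lowest value, -0.99 (SE 0.22, adjusted p = 0.068), with 33.5 ± 0.878 CPM against 66.3 ± 9.66 CPM in DMSO. KIF11 followed at -0.77 (SE 0.18, adjusted p = 0.080), then KIF18B at -0.66 (adjusted p = 0.14) and KIF15 at -0.66 (adjusted p = 0.14). KIF14 lay closest to 0, at -0.28 (SE 0.27, adjusted p = 0.61).

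With compound 6, calls depended on the fit. DESeq2 called KIF11, KIF15 and KIF20A. The fit of the 4 libraries of compound 6 and DMSO alone called 6 members (KIF11, KIF15, KIF18B, KIF20A, KIF23 and KIFC1). Of all 13400 genes, 184 were called lower with DESeq2 and 418 in the fit of 4 libraries, against 11 in the edgeR fit of all 8 libraries. With the replicate block 0 members were called, in a fit that called 12 of all 13400 genes lower. The median moved from -0.64 to -0.41 without DMSO replicate 2 and to -0.83 without DMSO replicate 1. Within replicate number 1 the median was -0.48, and within replicate number 2 it was -0.78. Compounds 4, 5 and 6 were compared with the same DMSO libraries, so their values against DMSO are not independent of one another.

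Summed over the 10 members, the kinesin level was 425 and 557 CPM in DMSO, 242 and 282 CPM with compound 4, 282 and 426 CPM with compound 5, and 306 and 333 CPM with compound 6. The higher compound 5 library and the lower DMSO library were at about the same level, and no other treated library reached the DMSO range. The group means were 491 ± 93.4, 262 ± 28.4, 354 ± 102 and 319 ± 18.5 CPM (SD, n = 2), so that compounds 4, 5 and 6 stood at 53.3%, 72.1% and 65.1% of DMSO.

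The compounds differ in structure by named groups. Compounds 4 and 6 are methyl-substituted bisphenols joined by a methylene bridge, and they differ in the substituent beside the hydroxyl group, which is tert-butyl in compound 4 and cyclohexyl in compound 6. Compound 5 has an ethylidene bridge and carries tert-butyl groups in place of the ring methyl groups as well. Since each was given at its own IC50, a difference between treatments is at close but not matched doses. All 3 pairs were compared, with p-values adjusted over all genes in each pair.

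Between compounds 4 and 6, which differ in the tert-butyl and cyclohexyl group, no member passed the test (0 of 10), nor did any of the 13400 genes (0%), of which 945 had an unadjusted p under 0.05 by edgeR and 59 passed with DESeq2. The log2-fold change of compound 4 against compound 6 ran from -0.48 for KIF18A (95% interval -1.04 to 0.09) to -0.18 for KIF2C (-0.63 to 0.27), with a median of -0.30 and a median of -0.01 over all genes. KIF11 alone had an unadjusted p under 0.05, with -0.44 (95% interval -0.86 to -0.02, adjusted p = 0.68), where 3.43% of all genes were lower at that level. Both compound 4 libraries lay below both compound 6 libraries for 9 of 10 members, the exception being KIF15, as they did for 19.6% of all genes. With compound 4 replicate 1 left out the median over the members was -0.17, and with compound 4 replicate 2 left out it was -0.43.

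Between compounds 4 and 5, again 0 of 10 members passed, against 0.127% of all genes called lower, 0.187% higher and 0.313% in either direction. The values ran from -0.61 for KIF20A (95% interval -1.10 to -0.12, adjusted p = 0.23) to -0.21 for KIF14 (-0.80 to 0.39, adjusted p = 0.73), with a median of -0.45. KIF11 (-0.54, 95% interval -0.95 to -0.12), KIF15 (-0.50, -0.96 to -0.04), KIF20A and KIF23 (-0.52, -0.97 to -0.07) had an unadjusted p under 0.05, as had 7.63% of all genes in that direction. Both libraries of compound 4 lay below both of compound 5 for 5 of 10 members, against 21.8% of all genes. The median moved to -0.13 without compound 5 replicate 2 and to -0.71 without compound 5 replicate 1.

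Between compounds 6 and 5, the values lay on both sides of 0, from -0.32 for KIF15 (95% interval -0.78 to 0.14) to 0.09 for KIF14 (-0.50 to 0.68), with a median of -0.15. No member passed (0 of 10, against 0.522% of all genes called lower, 0.507% higher and 1.03% in either direction), none had an unadjusted p under 0.05 (8.16% of all genes were lower at that level), and for none did the libraries separate, whereas both compound 6 libraries lay below both compound 5 libraries for 24.3% of all genes. Leaving out compound 5 replicate 1 gave a median of -0.41, and leaving out compound 5 replicate 2 gave 0.18. The interval for KIF11 was -0.51 to 0.31 and that for KIF20A was -0.74 to 0.24.

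**Figure D2:**
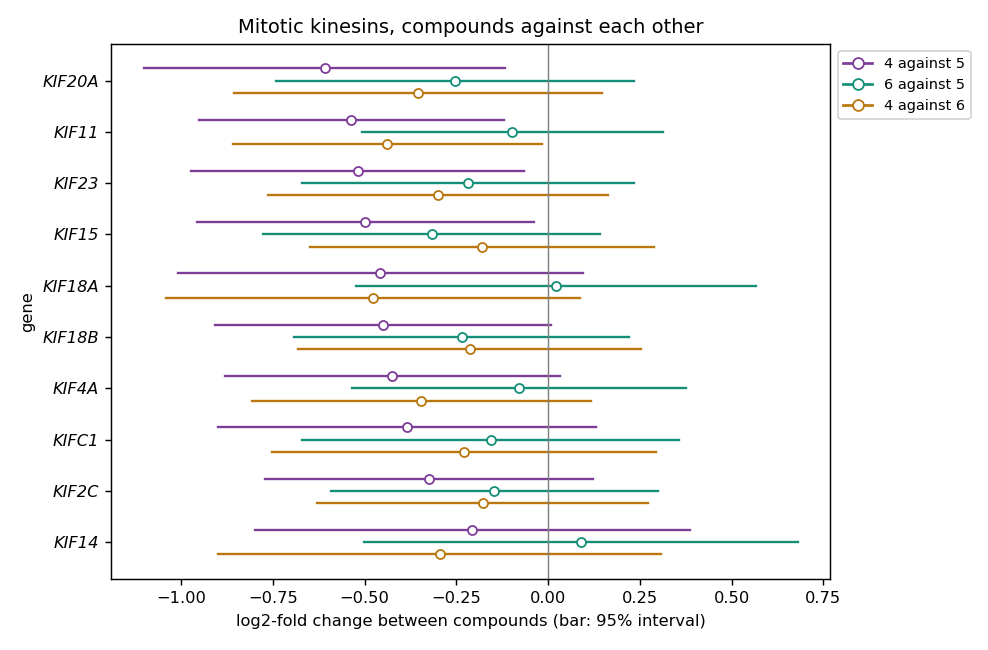
Log2-fold change between compounds (x axis) of each member (y axis) for compound 4 against 5, 6 against 5 and 4 against 6, with points for the estimate and bars for the 95% interval. No adjusted p was under 0.05. The points of 4 against 5 and 4 against 6 lie below 0 for all 10 members, and those of 6 against 5 for 8 of 10, from -0.32 to 0.09.

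The kinesins outside the members did not share one direction. Of 6 other mitotic kinesins, 4 passed the count filter, while KIF2B had no counts and KIF4B, a near-identical copy of KIF4A, had at most 9. KIF20B, a midzone motor needed for the end of cytokinesis, was lower with compound 4 (log2-fold change -0.89, adjusted p = 0.0076) and compound 5 (-0.60, adjusted p = 0.032), and had -0.60 (adjusted p = 0.078) with compound 6. KIF22, a chromosome-arm motor, was lower with compound 4 (-0.87, adjusted p = 0.026). CENPE, the kinetochore motor that carries chromosomes to the plate, had -0.74 (adjusted p = 0.11) with compound 4, -0.36 with compound 5 and -0.48 with compound 6. KIF2A, a spindle-pole depolymerase that is related to KIF2C and is also used outside mitosis, had -0.02 (adjusted p = 0.94), 0.08 and 0.06, with levels of 44.1 to 52.0 CPM in all libraries. No call in this list held in every fit that left out a library, and the calls over all genes changed with the library left out as well.

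Of 28 kinesins of transport and other functions, 20 passed the filter and none was called lower with any compound. At an unadjusted p under 0.05, 6 were higher and 1 was lower with compound 4 (KIF24), and 6 were higher and 1 was lower with compound 5 (KIF12). Their median log2-fold change was 0.19 with compound 4, 0.13 with compound 5 and 0.22 with compound 6. Of all 13400 genes, 3688, 3811 and 2490 had an unadjusted p under 0.05 with compounds 4, 5 and 6. Of these, 1665, 1721 and 1035 were lower. The shares of all genes called lower were 3.91%, 2.95% and 0.0821%, and those called higher were 5.6%, 5.35% and 0.493%. With compound 4, KIF21B (1.71, adjusted p = 0.043) and KIF5A (0.78, adjusted p = 0.032), a carrier motor best known from neurons, rose. With compound 5, KIFC3 (0.58, adjusted p = 0.026) and KIF16B (0.62, adjusted p = 0.040), an early-endosome motor, rose. With compound 6 none passed and 5 had an unadjusted p under 0.05 with higher values, KIF21B having the highest value at 2.28 (adjusted p = 0.054). The lowest values belonged to KIF24 with compound 4 (-1.30, adjusted p = 0.096) and with compound 6 (-0.31), and to KIF12 with compound 5 (-0.94, adjusted p = 0.15). None of the calls among these kinesins held in every fit that left out a library. Without compound 5 replicate 2, more of these kinesins passed with compound 5, as did more of all genes.

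**Figure D3:**
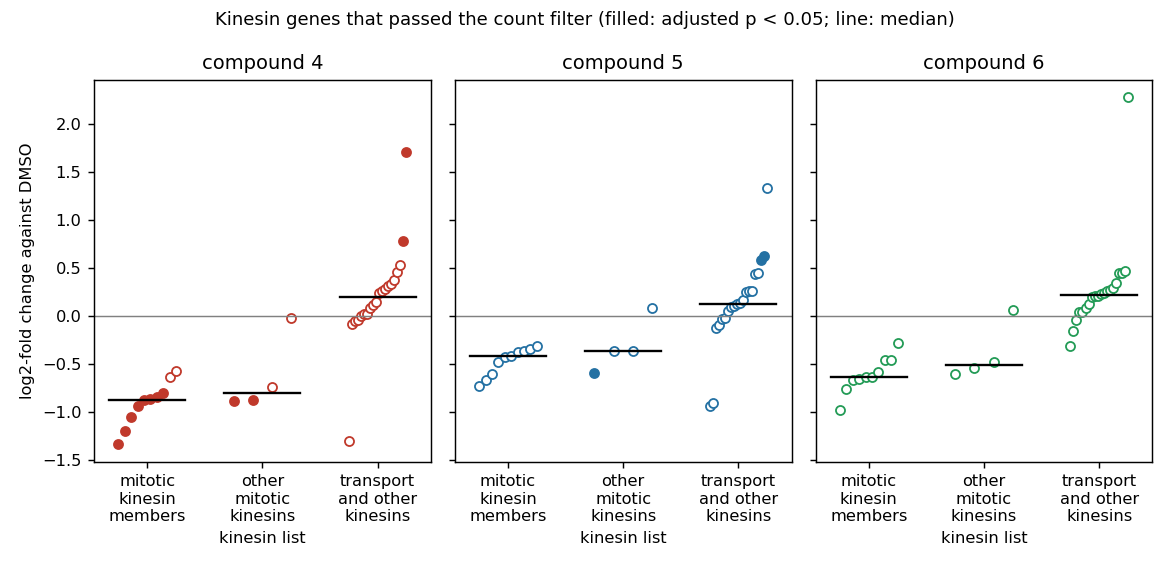
Log2-fold change against DMSO (y axis) of every kinesin gene that passed the count filter, in 3 lists (x axis) and 1 panel per compound, with filled points for an adjusted p under 0.05 and a line for the median of the list. The medians of the 10 members (-0.87, -0.42 and -0.64) lie below 0, and those of the 20 transport and other kinesins (0.19, 0.13 and 0.22) lie above it.

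Transcripts of proteins that work with these motors were also measured. Of all genes, 3.91% were called lower and 5.6% higher with compound 4, and 2.95% were called lower with compound 5. With compound 6, 7.72% of all genes were lower at an unadjusted p under 0.05. Of 26 spindle and midzone partners, 14 were lower with compound 4 and none was higher, with a median of -0.69. These included DLGAP5, a kinetochore fibre protein (-1.24, adjusted p = 0.0066), the Aurora B kinase AURKB (-1.15, adjusted p = 0.016), which KIF20A carries, and TPX2 (-0.80, adjusted p = 0.015), an activator of Aurora A that also binds KIF11 and KIF15. CLASP1, a microtubule-stabilising protein, had the highest value at -0.02 (adjusted p = 0.91). RACGAP1, the partner of KIF23 in centralspindlin, had -0.71 (adjusted p = 0.073), and PRC1, the midzone crosslinker that binds KIF4A, had -0.55 (adjusted p = 0.075). With compound 5, 2 partners were lower, ARHGEF39 (-1.17, adjusted p = 0.038) and HMMR (-0.95, adjusted p = 0.036), and the highest was CLASP2 at 0.34. With compound 6 none passed, against 15 with an unadjusted p under 0.05 and a lower value, and ARHGEF39 had -1.14 (adjusted p = 0.10) and CLASP1 0.19. The calls with compounds 4 and 5 did not hold in every fit that left out a library. More partners, and more of all genes, passed with compound 5 when its replicate 2 was left out. AURKB, TPX2, RACGAP1 and PRC1 were named for their known links to members, after their values were seen.

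Of 15 further genes of the G2/M programme, 9 were lower with compound 4 and none was higher, with a median of -0.83. None of these calls held in every fit that left out a library, and the calls over all genes changed with the library left out too. MKI67, the proliferation marker, had the lowest value (-1.26, adjusted p = 0.0078), and PTTG1, the securin, the highest (-0.30). With compounds 5 and 6, 0 of 15 passed, and 6 and 11 had an unadjusted p under 0.05. When compound 5 replicate 2 was left out, some of them passed with compound 5, and more of all genes passed as well. CCNA2, the gene of cyclin A2, had the lowest value with compound 5 (-0.63), and UBE2C, of the anaphase-promoting complex pathway, the lowest with compound 6 (-0.74). The medians of the partners and of the G2/M genes were -0.31 and -0.41 with compound 5, and -0.53 and -0.54 with compound 6. The shares of all genes called lower were 3.91%, 2.95% and 0.0821% with compounds 4, 5 and 6. At an unadjusted p under 0.05, 12.8% and 7.72% of all genes were lower with compounds 5 and 6.

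Of 19 regulators of G2/M transcription, 5 were lower with compound 4 and none was higher. They were the repressors E2F7 (-1.75, adjusted p = 0.0050) and E2F8 (-1.75, adjusted p = 0.020), the activators FOXM1 (-0.87, adjusted p = 0.021) and MYBL2 (-0.87, adjusted p = 0.030), which encodes B-MYB, and RBL1 (-0.59, adjusted p = 0.045), a pocket protein of DREAM. E2F7 was also lower with compound 5 (-1.24, adjusted p = 0.015), and with compound 6 none passed (7 had an unadjusted p under 0.05, all with lower values), E2F8 having the lowest value at -1.02. RBL2 (0.29), E2F4 (0.30) and NFYB (0.25) had the highest values with compounds 4, 5 and 6. Of all genes, 3.91% were called lower with compound 4 and 2.95% with compound 5. With compound 6, 7.72% of all genes were lower at an unadjusted p under 0.05. The median over the list of regulators was -0.17, -0.13 and -0.10 with compounds 4, 5 and 6. No regulator called with compound 4 or 5 was called in every fit that left out a library. Leaving out compound 5 replicate 2 raised the calls with compound 5, among the regulators and over all genes.

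The tubulins, which form the track of all kinesins, split by isotype. With compound 4 and with compound 5, 5 of 11 tubulin genes were higher and none was lower, and in both cases these were TUBB2A, TUBB2B, TUBB3, TUBB6 and TUBA4A. Of all genes, 5.6% were called higher with compound 4 and 5.35% with compound 5. TUBB2B had the highest value against DMSO for each compound, with 1.34 (adjusted p = 0.027) for compound 4, 1.29 (adjusted p = 0.035) for compound 5 and 1.36 (adjusted p = 0.074) for compound 6. TUBA1A had the lowest, with -0.68, -0.52 and -0.40. With compound 6 none passed, with 5 higher and 1 lower at an unadjusted p under 0.05. Of all 13400 genes, 2490 were under that level with compound 6, and 1035 of these were lower. Calls among the tubulins did not hold in every fit that left out a library, with compound 4 or with compound 5.

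Over the 8 libraries, the 5 genes whose log2 level was most like the mean of the members were POLA1 (Pearson r = 0.996), CDC20 (0.992), TMPO (0.990), LARS2 (0.990) and FBXO5 (0.988), out of 12719 genes ranked. CDC20 activates the anaphase-promoting complex and FBXO5 inhibits it, and POLA1 is the catalytic subunit of DNA polymerase alpha. The libraries share their groups, so these values describe a pattern over 4 treatments.

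Some members share their locus with another gene. The libraries were made with a directional kit, which keeps the strand of each read, but the strand setting of the counting is not given in the sources used here. The KIF20A gene (chr5:138178719-138187715, plus strand) overlaps exons of BRD8 and CDC23 on the opposite strand, and exons of KIF4A, KIF18A and KIF23 overlap those of PDZD11, METTL15 and KIF23-AS1. The highest count of these neighbours in any library was 1395 for BRD8, 827 for CDC23, 272 for PDZD11, 230 for METTL15 and 8 for KIF23-AS1. KIF11 (chr10:92593286-92655395, plus strand), KIF2C, KIF14, KIF15, KIF18B and KIFC1 had no neighbour with counts whose exons overlapped theirs.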

How the data were processed

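RNA-seq of 8 libraries (4 groups of 2) was analysed. Per the labels and the methods of the study, read quality was checked with FastQC 0.12.0, transcripts were quantified with Salmon 1.5.0 on GRCh38 with GENCODE 38, and tximeta 1.16.0 summed them per gene, and DESeq2 1.38.3 was named for the authors' own tests. The authors deposited estimated counts per gene, not normalised, as whole numbers for 60230 genes (60089 with a symbol in the name table used here). The library kit was directional, and the strand setting of the counting is not given in the sources used here.

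Genes were kept with edgeR's filterByExpr (minimum count 10, 13400 genes). Counts were TMM-normalised and tested with edgeR 4.0.16 (R 4.3.3) quasi-likelihood on all 8 libraries with the group as the only term, with Benjamini-Hochberg adjustment over all genes tested and a threshold of 0.05. SE is the absolute log2-fold change divided by the square root of F, and intervals are at 95%. CPM are TMM-scaled. No 2 replicates were treated as one library. The chi-square between the replicates of a group, averaged over the members, was 26.5, 6.54, 51.3 and 1.64 in DMSO and compounds 4, 5 and 6, where the median over all genes was 1.55, 2.24, 3.22 and 1.43. A mean stands beside a median here, and the chi-square grows with the count, so the members and all genes are not compared on one scale. Intervals and totals cover 9791659 to 17814595 counts per library. Positions and union-of-exon lengths are from GENCODE 29 (57972 genes matched by identifier), and promoter sequences from RefSeq.

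The labels give the pairing, as day 1 and day 2 in each group, and replicate differences correlated between groups from -0.16 to 0.30 over all genes. The members themselves shared a direction, with replicate 2 higher for 10, 9, 10 and 10 of 10 in DMSO and compounds 4, 5 and 6. The fit with the group as the only term leaves this out. The block on replicate number, DESeq2 1.42.0, its size factors, the fit of only the libraries compared, other count filters and leaving out libraries were alternatives. A group left with 1 library was assumed to vary like the other groups. The same alternatives for the comparison lists, and the TTTAAA search, were added after the data were seen. The members and lists (other mitotic kinesins, transport and other kinesins, spindle and midzone partners, regulators of G2/M transcription, G2/M genes, tubulins) were chosen with earlier results of these data known. Named were all members, every other mitotic kinesin, the highest and lowest member of each other list per compound, called regulators and tubulins, and the 5 genes most like the mean standardised log2 CPM of the members (0.5 CPM added, mean of at least 1 CPM). The code was tested on simulated data.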

Additional observations from a re-analysis of the deposited data

How the results depend on the processing

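The direction of the member medians against DMSO held under every alternative. When single libraries were left out, the medians ranged from -1.08 to -0.66 for compound 4, -0.78 to -0.18 for compound 5 and -0.83 to -0.41 for compound 6. The medians between compounds ranged from -0.71 to -0.13 (4 against 5), -0.41 to 0.18 (6 against 5) and -0.43 to -0.17 (4 against 6). Calls depended on the settings, and the cause was not tested.

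Of the members, with compound 5 DESeq2 called 2, the replicate block 3, DESeq2 size factors in edgeR 1, no count filter 4 and at least 10 counts in every sample 2. Over all genes, these compound 5 settings called 1349, 1429, 1101, 2431 and 1250, against 1112 in the edgeR fit with the group only. Tested were 13400 genes, but 23080 with no filter and 12091 with 10 counts in every sample. With compound 6, DESeq2 called 3, the fit of the 4 samples 6, no filter 9 and 10 counts in every sample 1. Over all genes, these compound 6 settings called 547, 956, 1355 and 198, against 77 in the edgeR fit with the group only. For compound 4 against 5 no filter gave 4 members, and 750 of all genes against 42. The replicate block, which treats equal day numbers as pairs, otherwise changed the call of KIF2C with compound 4 and of no other member.

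Of the lists with compound 5, DESeq2 called 4 partners, 2 regulators and 5 G2/M genes, the replicate block 5 partners and 4 G2/M genes, the fit of 4 samples 0 other mitotic kinesins, 1 transport kinesin, 0 partners and 3 tubulins, no filter 4 transport kinesins, 6 partners, 3 regulators and 7 G2/M genes, and 10 counts in every sample 2 regulators. With compound 6, in the order other mitotic kinesins, transport kinesins, partners, regulators, G2/M genes and tubulins, DESeq2 called 1, 1, 9, 2, 6 and 3, the fit of 4 samples 2, 1, 12, 4, 8 and 3, and no filter 2, 1, 15, 5, 10 and 5, while the block gave 1 G2/M gene and 1 tubulin and 10 counts in every sample 2 tubulins. With compound 4, no filter gave 5 transport kinesins. Leaving out libraries changed the calls of these lists with compounds 4 and 5, and the calls over all genes changed too.

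Single members crossed 0 when a library was left out, namely KIF14 (-0.52 to 0.24) and KIFC1 (-0.72 to 0.083) for compound 4 against 5. For compound 6 against 5 the ranges were KIF2C -0.40 to 0.17, KIF4A -0.32 to 0.22, KIF11 -0.31 to 0.16, KIF14 -0.23 to 0.53, KIF18A -0.28 to 0.44, KIF18B -0.47 to 0.073, KIF20A -0.57 to 0.18, KIF23 -0.41 to 0.020 and KIFC1 -0.49 to 0.31. With 2 samples a group, the printed intervals give the precision at 9791659 to 17814595 counts per library.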
